A study of Mus musculus with 12 samples.

Results

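The 9 genes described here act in the synthesis, breakdown and binding of retinoic acid, and they were read by 12 probe sets among the 44238 tested on Affymetrix mouse arrays (17996 named genes). The members were every probe set annotated to Rdh10, Dhrs3, Aldh1a1, Aldh1a2, Aldh1a3, Cyp26a1, Cyp26b1, Crabp1 or Crabp2. Aldh1a3 had 3 probe sets, Rdh10 had 2 and the other 7 genes had 1 each. The cells were somatic support cells, the lineage that forms Sertoli cells in a testis and pregranulosa cells in an ovary, sorted by flow cytometry from mouse gonads. The 4 groups were XY cells at embryonic day 12.5 (E12.5), XX cells at E12.5, XY cells at E11.5 and XX cells at E11.5. All came from strain FVB.Cg-Tg(Tyr)3412ARpw, a line with a Tyr transgene, bearing also the reporter Tg(Sry-EGFP)92EI, in which EGFP is driven from Sry sequence, so both sexes carried both transgenes. Each group held 3 pools of sorted cells, with 1 array per pool. Whether each pool had its own embryos or litter is not stated. Every p-value of the main fit rests on the spread among the 3 pools within groups, shared over all 4 groups. That spread may be technical.

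Retinoic acid is made from retinol in 2 oxidation steps. RDH10 carries out the first, to retinaldehyde, and the retinaldehyde dehydrogenases ALDH1A1, ALDH1A2 and ALDH1A3 carry out the second. DHRS3 turns retinaldehyde back into retinol, enzymes of the CYP26 family oxidise retinoic acid for removal, and CRABP1 and CRABP2 bind it inside the cell. In the fetal mouse gonad retinoic acid is known as a signal for germ cells to enter meiosis, and CYP26B1 in the testis is known to keep its level low there.

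RefSeq promoter windows (GRCm38.p6, 250 bases before to 50 bases after a transcript start) were at hand for 6 of the 9 genes, in 9 windows. The windows of both Cyp26 genes are shown because the array read one gene low in every pool and the other with a large difference between the sexes. Capitals mark a direct repeat of half-sites spaced by 5 bases, the arrangement known as a retinoic acid response element. The half-site searched was AGGTCA or a variant of it (AGTTCA or GGGTCA or GGTTCA), on both strands.
Cyp26a1, chr19:37697558-37697857, plus strand: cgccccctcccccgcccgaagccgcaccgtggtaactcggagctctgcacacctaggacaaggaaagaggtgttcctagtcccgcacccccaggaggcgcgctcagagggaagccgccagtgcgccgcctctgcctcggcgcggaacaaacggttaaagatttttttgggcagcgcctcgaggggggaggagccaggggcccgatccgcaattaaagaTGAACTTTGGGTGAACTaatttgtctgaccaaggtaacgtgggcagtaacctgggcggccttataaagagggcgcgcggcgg
Cyp26b1, chr6:84593761-84594060, minus strand: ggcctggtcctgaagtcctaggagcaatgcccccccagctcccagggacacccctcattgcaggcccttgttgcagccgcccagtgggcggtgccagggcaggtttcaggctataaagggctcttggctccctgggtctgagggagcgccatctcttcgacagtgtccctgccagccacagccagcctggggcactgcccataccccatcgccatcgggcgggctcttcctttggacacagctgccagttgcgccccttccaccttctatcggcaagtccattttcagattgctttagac
The repeat in Cyp26a1 lay 32 to 16 bases before the start and read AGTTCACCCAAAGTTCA on the strand opposite to the gene. Of all 32851 windows of this length 0.0974% held such a repeat, and of the 9 member windows it was in that of Cyp26a1 alone. The same half-sites spaced by 2 bases (0.268% of all windows), the NR5A1 element TCAAGGTCA (0.423%, which overlaps the half-site AGGTCA) and the SOX core AACAAT (10.7%) were in none of the 9. The FOX core GTAAACA (3.65% of all windows) was in 1 of 3 windows of Dhrs3. A match or its absence describes the letters of these windows and no binding.

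Values are log2 signals per probe set, and array medians ran from 6.494 to 6.592. Without a target in the cell a probe set still reads a signal, which for 9 probe sets of Y-linked genes in the 6 XX arrays lay between 3.09 and 6.04. Levels of different probe sets cannot be compared, and differences near that range are compressed. Xist and 5 of those 9 probe sets separated the sexes as labelled on all 12 arrays. In XX arrays those 5 read 3.33 to 5.17 and the other 4 read 3.09 to 6.04. The bound of 6.04 thus rests on probe sets that did not separate the sexes. The 10 Sertoli markers averaged 10.76 to 10.97 in XY E12.5 pools, 6.90 to 6.95 in XX E12.5 pools, 8.19 to 9.51 in XY E11.5 pools and 7.02 to 7.16 in XX E11.5 pools. The 10 pregranulosa markers averaged 7.53 to 7.70, 11.16 to 11.32, 8.61 to 9.05 and 8.69 to 9.61 in the same order of groups. Pool 2 of XX E11.5 stood apart at markers of other cells: its 12 endothelial markers averaged 8.65, against 6.28 to 7.11 in the other 11 pools, and its 10 interstitial mesenchyme markers 9.75, against 7.92 to 8.61. Some markers of other cells also moved with XY E12.5. The 12 macrophage and leukocyte markers averaged 7.33 to 7.58 there, 6.89 to 7.03 in XX E12.5, 6.04 to 6.64 in XY E11.5 and 6.47 to 7.81 in XX E11.5. None of the 12 was called between the sexes at E12.5 by limma (2 had an unadjusted p under 0.05), and over the day in XY 1 was (Cd68; 7 unadjusted). Of the 10 interstitial markers, Pdgfra and Ptch1 were called higher in XY at E12.5, by 1.85 and 2.17 log2 units. Nr2f2, at its brightest probe set, went the other way (-1.27) and was not called. The median difference of the 10 was 0.11. Their means overlapped between the sexes, at 8.03 to 8.61 in XY E12.5 and 7.92 to 8.41 in XX E12.5. The 7 erythroid markers measured averaged 6.20 to 6.39 in XY E12.5 and 5.92 to 6.06 in XX E12.5. At E11.5 they averaged 6.08 to 6.21 in XY and 5.74 to 6.07 in XX. Erythroid means of XY pools thus lay above those of XX pools at both days, and Klf1 was called higher in XY at E12.5. The part of these cells in the XY E12.5 values of the members was not tested. In sorted pools, fewer cells of a type and less RNA per cell cannot be told apart.

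At E12.5 XY cells had more Cyp26b1 and Aldh1a1 signal and less Dhrs3 signal than XX cells, and Dhrs3 was the 1 member with a called change in the sex difference between the days. With limma and Benjamini-Hochberg adjustment over all probe sets, 4 of the 12 member probe sets were called at E12.5 (adjusted p under 0.05), 2 higher and 2 lower in XY, where 7.72% of all probe sets were called (3.92% higher and 3.81% lower). At E11.5 limma called 0 of the 12, against 0.0678% of all, and 3 had an unadjusted p under 0.05. From E11.5 to E12.5, 1 of 12 fell in XX, where 3.11% of all probe sets were called and 1.43% fell. In XY 1 of 12 fell, where 6.16% of all were called and 2.98% fell. The change in the sex difference was called at 1 of 12, negative, where 1.75% of all were called and 0.954% were negative. The median of XY minus XX over the 12 probe sets was -0.23 at E12.5 and -0.16 at E11.5, beside 0.00 and 0.05 over all probe sets. The 3 values of XY lay wholly beyond those of XX at 5 of 12 member probe sets at E12.5, where 28.6% of all probe sets did so, and at 2 of 12 at E11.5, where 10.1% did. Between the days the pools were apart at 8 of 12 in XY (26.8% of all) and at 5 of 12 in XX (26.6%).

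**Figure D1:**
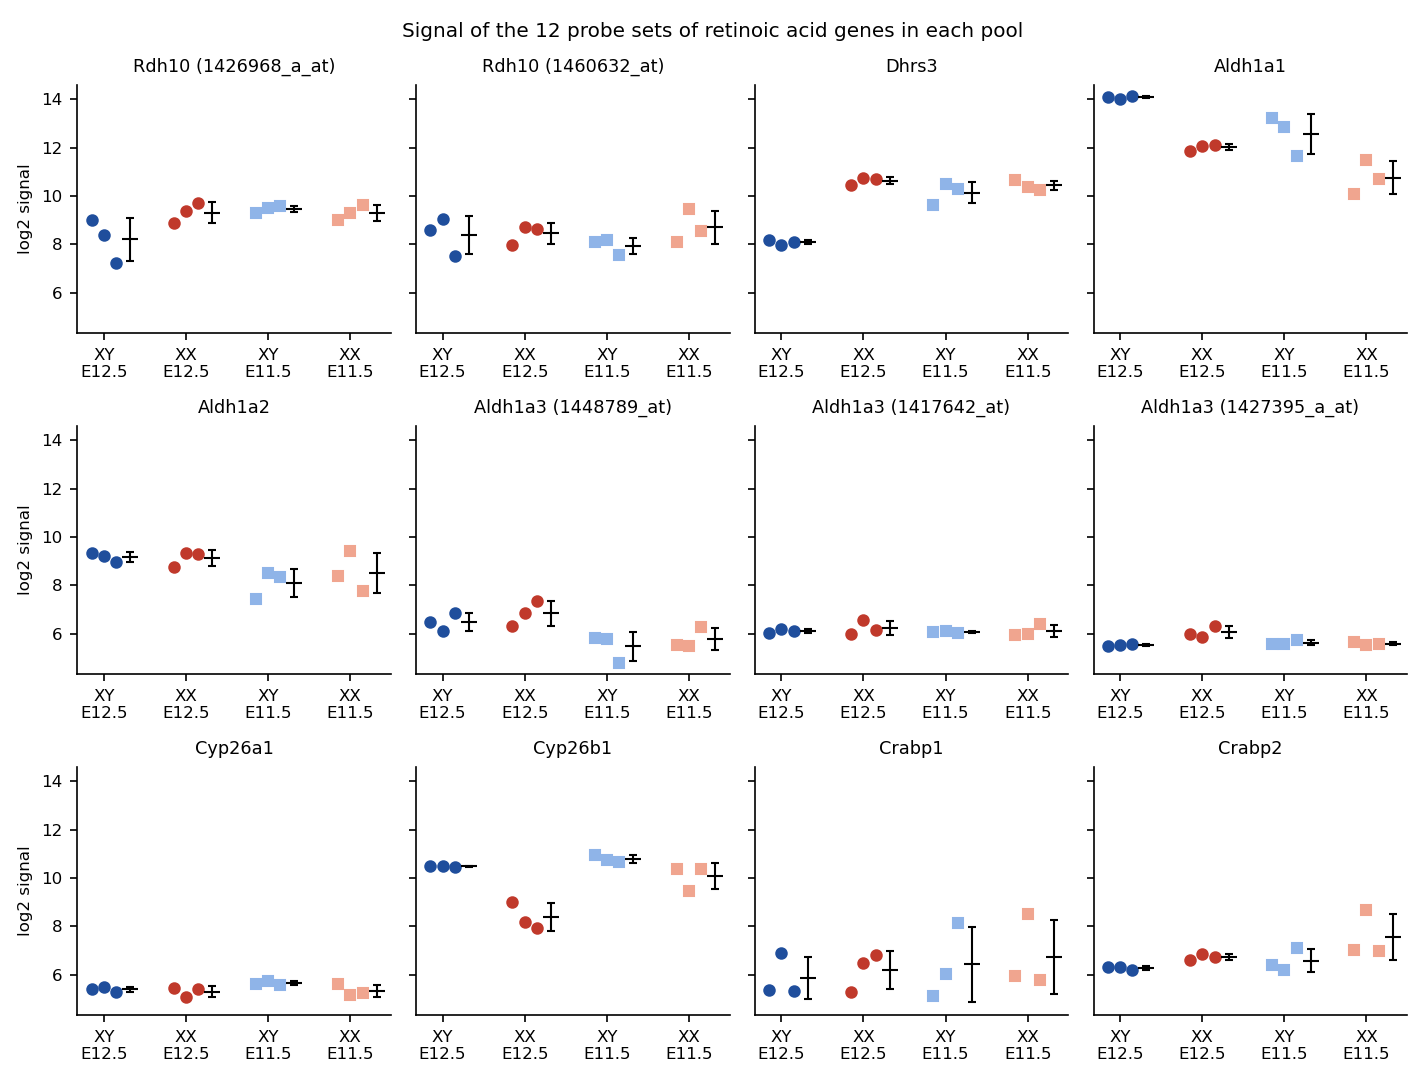
Log2 signal of the 12 member probe sets, 1 panel each, in the 3 pools of each group (points), with the group mean and SD as a bar to the right. Cyp26b1 is low in the 3 XX E12.5 pools (7.92 to 9.03), Dhrs3 in the 3 XY E12.5 pools (7.99 to 8.17), and Aldh1a1 is highest in the 3 XY E12.5 pools (14.04 to 14.14).

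**Figure D2:**
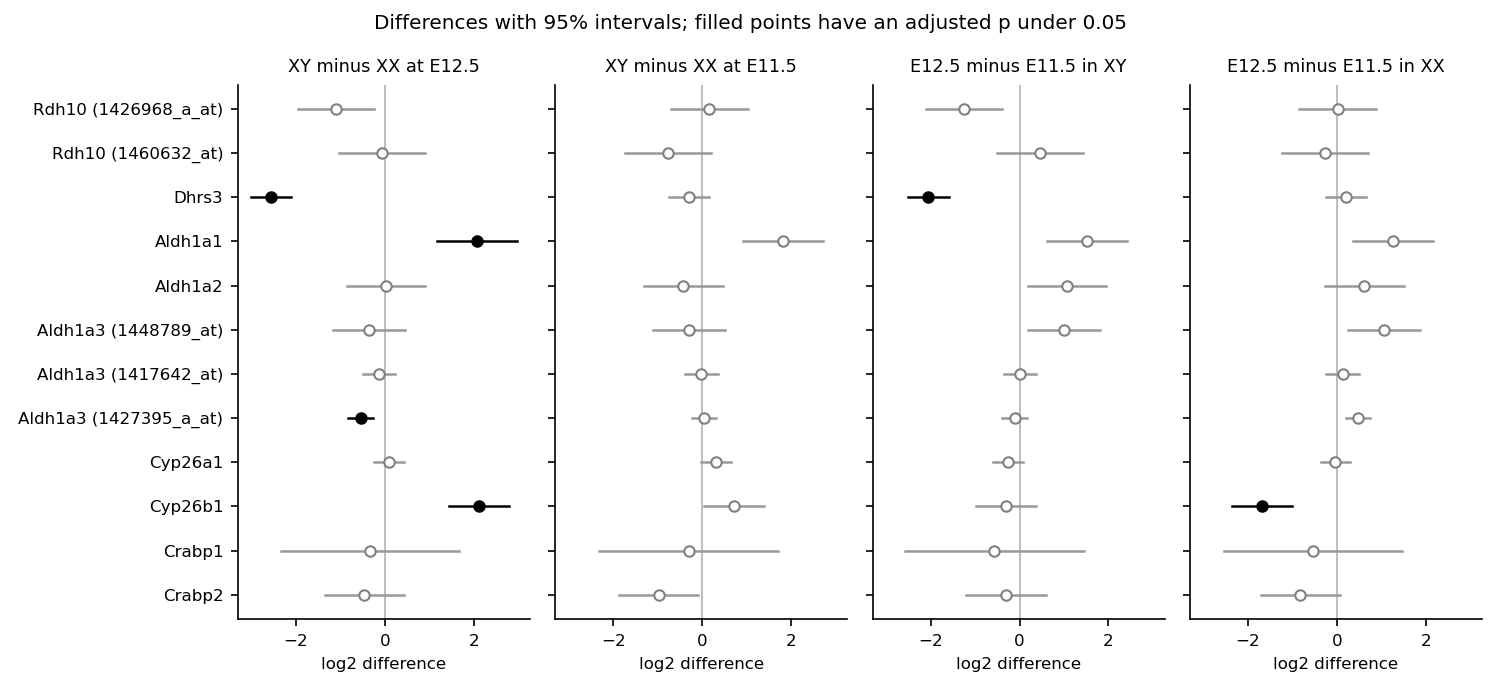
Log2 differences of the 12 probe sets with 95% intervals from limma, for the sexes at each day and for the days in each sex, with called probe sets as filled points. Called are Dhrs3 (-2.56), Aldh1a1 (2.07), 1 of 3 Aldh1a3 probe sets (-0.54) and Cyp26b1 (2.12) between the sexes at E12.5, Dhrs3 in XY (-2.05) and Cyp26b1 in XX (-1.69) between the days.

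Among the genes of synthesis, Rdh10, which makes retinaldehyde from retinol, had no called difference at either of its 2 probe sets. Probe set 1426968_a_at read 9.0, 8.39 and 7.25 in XY E12.5, 8.87, 9.38 and 9.70 in XX E12.5, 9.31, 9.49 and 9.58 in XY E11.5, and 8.99, 9.28 and 9.62 in XX E11.5. The 3 XY E12.5 pools spread widely, and pool 1 of them overlapped the XX E12.5 pools. The difference of XY minus XX at E12.5 was -1.10 ± 0.39 (SE), with an interval of -1.96 to -0.24, and the change over the day in XY was -1.25 ± 0.39. Neither was called by limma (adjusted p = 0.13 and 0.093), although without XY E12.5 pool 1 both were, at -1.5 and -1.65 (adjusted p = 0.042 and 0.034). Without XY E12.5 pool 3 they were -0.62 and -0.77. Probe set 1460632_at differed by -0.06 (-1.03 to 0.91) between the sexes at E12.5 and by 0.45 (-0.52 to 1.42) over the day in XY. XY pool 3 was the lowest of the 3 XY E12.5 pools at both probe sets (7.25 and 7.51), and whether the probe sets differ from each other was not tested.

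Dhrs3, the retinaldehyde reductase gene, read 8.17, 7.99 and 8.10 in XY E12.5, and 10.46, 10.74 and 10.73 in XX E12.5. It read 9.64, 10.48 and 10.29 in XY E11.5, and 10.66, 10.40 and 10.26 in XX E11.5. The 3 XY E12.5 pools lay at least 1 log2 unit below the other 9, which overlapped one another across 3 groups. In order of group means XY E12.5 (8.09 ± 0.09, SD, n = 3) came first from below, followed by XY E11.5 (10.14 ± 0.44), XX E11.5 (10.44 ± 0.20) and XX E12.5 (10.64 ± 0.16). At E12.5 the XY level was 5.88-fold lower (95% interval 4.3 to 8.05; limma adjusted p = 6.4e-05). In XY it fell 4.15-fold over the day (3.03 to 5.68; adjusted p = 4e-04). In XX the change over the day was 0.20 (-0.25 to 0.66), and at E11.5 the sexes differed by -0.30 (-0.75 to 0.15), neither called. The sex difference at E12.5 minus that at E11.5 was -2.26 ± 0.29 (SE) on the log2 scale (adjusted p = 0.004). These 3 calls held without any 1 of the 12 arrays, with log2 differences of -2.65 to -2.51 between the sexes at E12.5, -2.30 to -1.88 over the day in XY and -2.51 to -2.08 for the change in the sex difference.

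Aldh1a1, which oxidises retinaldehyde to retinoic acid, read 14.11, 14.04 and 14.14 in XY E12.5, and 11.88, 12.09 and 12.11 in XX E12.5. It read 13.24, 12.86 and 11.66 in XY E11.5, and 10.10, 11.49 and 10.71 in XX E11.5. XY pools lay above XX pools at both days without overlap, and E12.5 pools above E11.5 pools in both sexes. Group means were 14.10 ± 0.06 (SD, n = 3) in XY E12.5, 12.03 ± 0.13 in XX E12.5, 12.59 ± 0.83 in XY E11.5 and 10.77 ± 0.70 in XX E11.5, and the values of XX E12.5 and XY E11.5 overlapped. The XY E12.5 values were close to 14.45, the highest value in the whole table, and whether they were compressed there was not tested. At E12.5 the XY level was 4.2-fold higher (95% interval 2.25 to 7.83; limma adjusted p = 0.012). At E11.5 the difference was 1.82 ± 0.40 (SE; interval 0.92 to 2.72) and was not called (adjusted p = 0.30), although without XY E11.5 pool 3 it was, at 2.29 (adjusted p = 0.047). Over the day Aldh1a1 differed by 1.51 in XY (0.61 to 2.41; adjusted p = 0.056) and by 1.26 in XX (0.36 to 2.16; adjusted p = 0.11). The difference in XY was called when XX pool 1, XX pool 2 or XY pool 1 of E11.5 was left out (adjusted p = 0.047, 0.036 and 0.039). The sex difference at E12.5 minus that at E11.5 was 0.25, with an interval of -1.03 to 1.52.

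Aldh1a7, a mouse paralog of Aldh1a1 with a closely similar sequence, read 12.69 to 12.78 in XY E12.5, 10.43 to 10.85 in XX E12.5, 10.30 to 11.59 in XY E11.5 and 10.26 to 10.71 in XX E11.5. At E12.5 it was 4.2-fold higher in XY (2.72 to 6.5; limma adjusted p = 0.0016), and it rose 3.2-fold over the day in XY (2.07 to 4.95; adjusted p = 0.0078), a call that ended when the XY arrays were fitted alone (adjusted p = 0.056). Across the 12 arrays, which share the 4 groups, its values followed those of Aldh1a1 with a Pearson correlation of 0.92. Whether the probes of either gene also detect the other was not tested.

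Aldh1a2, the retinaldehyde dehydrogenase gene of the early embryo and of the mesonephros next to the gonad, showed no called difference. It read 9.33, 9.22 and 8.96 in XY E12.5, 8.77, 9.34 and 9.31 in XX E12.5, 7.45, 8.52 and 8.33 in XY E11.5, and 8.38, 9.41 and 7.78 in XX E11.5. The sexes overlapped at both days, and in XY the 3 E12.5 pools lay above the 3 E11.5 pools. The difference of XY minus XX was 0.03 at E12.5 (interval -0.86 to 0.91) and -0.43 at E11.5 (-1.31 to 0.46). The highest E11.5 value, 9.41, was in XX pool 2, and without that pool the difference at E11.5 was 0.02. Over the day it differed by 1.07 in XY (0.19 to 1.96; limma adjusted p = 0.16) and by 0.62 in XX (-0.27 to 1.5), which was 1.06 without XX E11.5 pool 2. The 10 coelomic and mesonephric epithelial markers measured averaged 5.85 to 5.90 in XY E12.5, 6.26 to 6.71 in XX E12.5, 5.92 to 6.05 in XY E11.5 and 5.53 to 6.95 in XX E11.5, and their part in the Aldh1a2 signal was not tested.

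Aldh1a3, the dehydrogenase gene known from the developing eye and nose, read low at its 3 probe sets, between 4.80 and 7.37. Probe set 1427395_a_at read 5.47, 5.53 and 5.57 in XY E12.5, and 5.99, 5.87 and 6.32 in XX E12.5. Of these 6 values 5 lay below 6.04, the highest value of Y-linked probe sets in XX arrays. All 6 lay above 5.17, the highest at the 5 of those that separated the sexes. The probe set was called 1.46-fold lower in XY at E12.5 (1.2 to 1.76; limma adjusted p = 0.025). That call ended without any 1 of the E12.5 arrays except XX pool 2, with log2 differences of -0.58 to -0.41 and adjusted p of 0.0504 to 0.084. Probe set 1448789_at, the brightest, read 6.47, 6.10 and 6.86 in XY E12.5, 6.31, 6.84 and 7.37 in XX E12.5, 5.84, 5.78 and 4.80 in XY E11.5, and 5.54, 5.50 and 6.29 in XX E11.5. All E12.5 pools lay above all E11.5 pools of their sex, with differences of 1.01 in XY and 1.07 in XX (adjusted p = 0.15 and 0.13), neither called. Probe set 1417642_at read 5.95 to 6.56 over all 12 pools.

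Of the breakdown genes, Cyp26b1 read 10.49, 10.51 and 10.48 in XY E12.5, and 9.03, 8.18 and 7.92 in XX E12.5. It read 10.96, 10.76 and 10.65 in XY E11.5, and 10.37, 9.45 and 10.39 in XX E11.5. The XY pools of both days lay within 0.5 log2 units of one another, and the 3 XX E12.5 pools were the lowest of the 12. In order of group means XX E12.5 (8.38 ± 0.58, SD, n = 3) was followed upwards by XX E11.5 (10.07 ± 0.54), XY E12.5 (10.49 ± 0.02) and XY E11.5 (10.79 ± 0.16). At E12.5 the XY level was 4.34-fold higher (95% interval 2.72 to 6.92; limma adjusted p = 0.0021), a call that held without any 1 of the 12 arrays (log2 difference 1.89 to 2.44). At E11.5 the 3 XY pools also lay above the 3 XX pools, by 0.73 (0.05 to 1.40), which was not called (adjusted p = 0.72). Without XX E11.5 pool 2, the lowest of its group, that difference was 0.42.

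Over the day Cyp26b1 fell 3.23-fold in XX (2.03 to 5.16; limma adjusted p = 0.021). That call ended without XX E11.5 pool 3, without XX E12.5 pool 2 and without XX E12.5 pool 3, at -1.53, -1.60 and -1.46 on the log2 scale (adjusted p = 0.067, 0.09 and 0.088). In XY the difference over the day was -0.30 (-0.97 to 0.37; adjusted p = 0.66). The sex difference at E12.5 minus that at E11.5 was 1.39 ± 0.43 (SE; interval 0.44 to 2.34), higher at E12.5 but not called (adjusted p = 0.15), and it was 1.70 without XX E11.5 pool 2 (adjusted p = 0.066). A fall of Cyp26b1 in XX that differs from the change in XY was therefore not established by the fit.

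**Figure D3:**
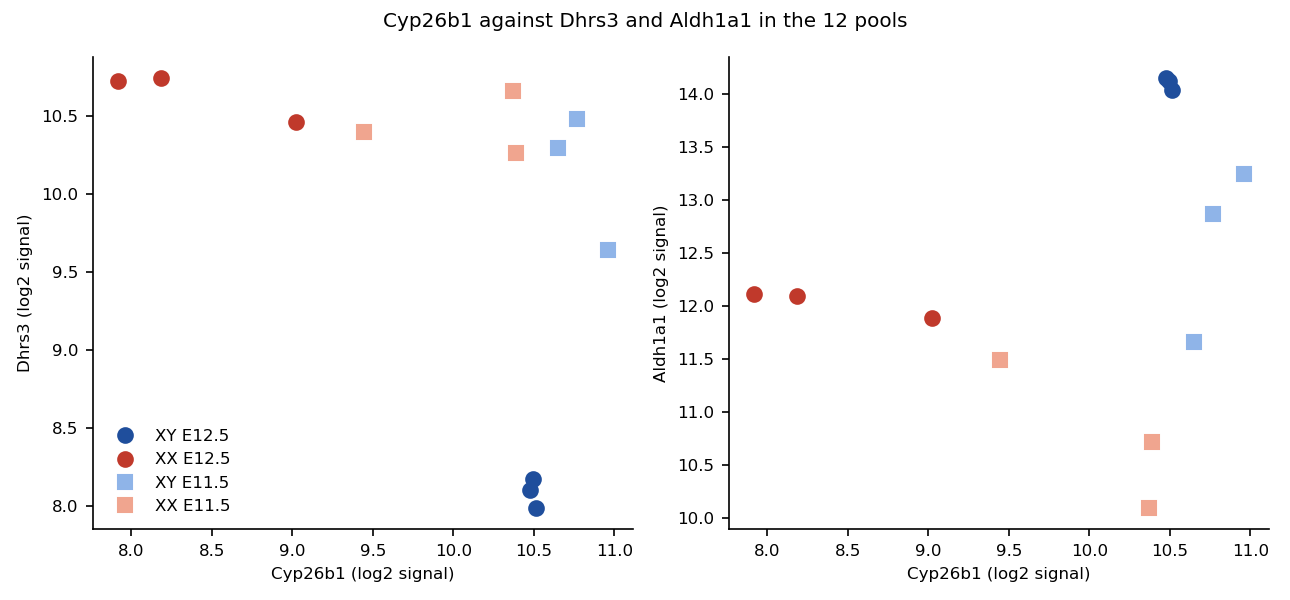
Log2 signal of Cyp26b1 (horizontal) against Dhrs3 (left panel, vertical) and Aldh1a1 (right panel, vertical) in the 12 pools, coloured by group. The XY E12.5 pools combine high Cyp26b1 (10.48 to 10.51) with low Dhrs3 (7.99 to 8.17). The XX E12.5 pools combine low Cyp26b1 (7.92 to 9.03) with high Dhrs3 (10.46 to 10.74). The E11.5 pools read 9.45 (XX pool 2) to 10.96 for Cyp26b1 and 9.64 to 10.66 for Dhrs3.

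Cyp26a1, the paralog that retinoic acid itself induces in many tissues, read 5.40, 5.48 and 5.30 in XY E12.5, 5.46, 5.06 and 5.39 in XX E12.5, 5.62, 5.74 and 5.58 in XY E11.5, and 5.62, 5.15 and 5.24 in XX E11.5. All 12 values lay within the range of 3.09 to 6.04 that Y-linked probe sets gave in XX arrays, without their target. At the 5 of these that separated the sexes the highest XX value was 5.17. Only the Cyp26a1 values of 5.06 (XX E12.5) and 5.15 (XX E11.5) lay below it. Its probe set differed by 0.09 (-0.24 to 0.42) between the sexes at E12.5 and by 0.31 (-0.02 to 0.64) at E11.5, and over the day by -0.25 in XY and -0.03 in XX, none called.

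The regulators of Cyp26b1 known from the fetal gonad are SOX9 and NR5A1, which activate it, and FOXL2, which represses it. Sox9 read 10.04 to 10.28 in XY E12.5, 6.03 to 6.43 in XX E12.5, 10.04 to 11.50 in XY E11.5 and 5.60 to 6.58 in XX E11.5. Foxl2 read 7.39 to 8.01 in XY E12.5, 11.03 to 11.11 in XX E12.5, 7.35 to 7.77 in XY E11.5 and 7.54 to 8.78 in XX E11.5. The Foxl2 pools of XX E12.5 thus lay above all others, in the group where Cyp26b1 was lowest. All 10 pregranulosa markers, Foxl2 among them, were called lower in XY at E12.5. The part of any regulator in the Cyp26b1 values was not tested. Foxl2 rose 7.42-fold over the day in XX (4.79 to 11.5; limma adjusted p = 0.0026), at 1 of its 2 probe sets. Sox9 was apart between the sexes at E11.5 already, by 4.31 ± 0.38 log2 units (SE; adjusted p = 0.0014), a call that ended when the E11.5 arrays were fitted alone (adjusted p = 0.23), while Cyp26b1 was not called there. Nr5a1 differed by 0.23 ± 0.30 between the sexes at E12.5 and by 0.94 ± 0.30 at E11.5, neither called.

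The retinoic acid binding proteins showed no called difference in any comparison. Crabp2, which carries retinoic acid to its nuclear receptor, read 6.31, 6.31 and 6.20 in XY E12.5, 6.59, 6.87 and 6.74 in XX E12.5, 6.40, 6.21 and 7.12 in XY E11.5, and 7.01, 8.66 and 6.99 in XX E11.5. XY pools lay below XX pools at E12.5 without overlap, by -0.46 (-1.35 to 0.43; limma adjusted p = 0.62). At E11.5 the difference was -0.98 (-1.87 to -0.09; adjusted p = 0.72), and without XX pool 2 it was -0.43. Over the day in XX it was -0.82, and -0.27 without that pool. The value of 8.66 was in XX E11.5 pool 2, where several marker lists of other cells had their highest mean of all pools. These were endothelial (8.65), interstitial mesenchyme (9.75), macrophage and leukocyte (7.81), and coelomic and mesonephric epithelial markers (6.95). The part of those cells in the Crabp2 value was not tested.

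Crabp1, whose protein binds retinoic acid in the cytoplasm, had the largest SD between pools of all member probe sets in 3 of the 4 groups, XY E12.5 excepted. It read 5.38, 6.88 and 5.34 in XY E12.5, 5.29, 6.47 and 6.83 in XX E12.5, 5.11, 6.05 and 8.13 in XY E11.5, and 5.94, 8.49 and 5.77 in XX E11.5. Its 2 highest values belonged to E11.5, in XX pool 2 and XY pool 3, and groups overlapped in every comparison. The SD between pools was 0.88 in XY E12.5, 0.80 in XX E12.5, 1.55 in XY E11.5 and 1.53 in XX E11.5. A difference between the sexes of -0.33 at E12.5 had an interval of -2.34 to 1.68, and one of -0.30 at E11.5 an interval of -2.31 to 1.71, so changes of several fold in either direction were not detectable. The endothelial marker mean was 8.65 in XX E11.5 pool 2 and 6.51 in XY E11.5 pool 3. The interstitial mesenchyme marker mean was 9.75 and 8.47 in these pools, the highest of its group in each. The part of such cells in the Crabp1 values was not tested. Without XX E11.5 pool 2 the sex difference at E11.5 was 0.58, and without XY E11.5 pool 3 it was -1.15.

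**Figure D4:**
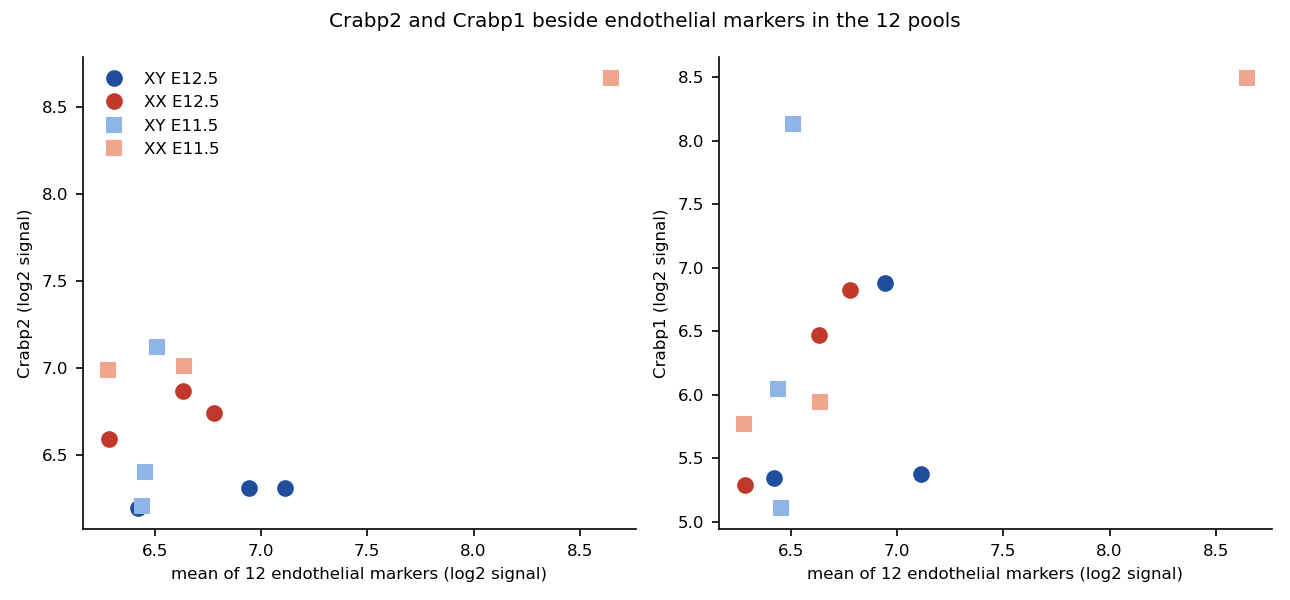
Log2 signal of Crabp2 (left panel, vertical) and Crabp1 (right panel, vertical) against the mean log2 signal of 12 endothelial markers (horizontal) in the 12 pools, coloured by group. XX E11.5 pool 2 lies apart at the upper right of both panels, with a marker mean of 8.65. The second highest Crabp1 value (8.13, XY E11.5 pool 3) has a marker mean of 6.51. Interstitial mesenchyme markers, not plotted, averaged 9.75 and 8.47 in these pools.

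Other genes of retinoid handling were taken from a list of 66, of which 57 were measured by a probe set naming 1 gene, each at its brightest probe set. With limma 5 of the 57 differed by sex at E12.5, 1 higher and 4 lower in XY, where 11.1% of all named genes were called at their brightest probe set. At E11.5 limma called 0 of 57 (0.0556% of all genes), with 4 at an unadjusted p under 0.05. Over the day 1 rose and 6 fell in XY (7.01% of all genes called), and 1 rose and 2 fell in XX (3.76%). The change in the sex difference was called by limma at 0 of 57 (2.83% of all genes), with 7 at an unadjusted p under 0.05. The median of the list between the sexes at E12.5 was -0.02, beside 0.00 over all named genes.

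Among other enzymes of this list, beside Aldh1a7 above, 2 were called lower in XY at E12.5 at the brightest probe set, and Dhrs4 was called lower there at the dimmer of its 2 probe sets. Dhrs7, a short-chain dehydrogenase gene, was 1.8-fold lower (adjusted p = 0.018, limma), and Rdh11, a retinaldehyde reductase gene, 1.7-fold lower (adjusted p = 0.046). They also fell over the day in XY, 1.73-fold (adjusted p = 0.031) and 1.79-fold (adjusted p = 0.037). None of these 4 calls was stable: between 5 and 8 of the 12 arrays, left out in turn, ended each, with adjusted p up to 0.062 and 0.15 between the sexes and up to 0.11 and 0.13 over the day. Calls of Dhrs7 were at 1 of 3 probe sets and those of Rdh11 at 1 of 2, and over the day in XY the mean of the 2 Rdh11 probe sets differed by 0.02. Lpl, whose lipase frees retinoids from circulating particles, fell 2.39-fold in XY (1.72 to 3.33; adjusted p = 0.0087) and 1.97-fold in XX (adjusted p = 0.042), the second of which ended without any 1 of 8 arrays (adjusted p up to 0.16). Other list genes were called at a dimmer probe set only. Ncoa2 (1 of 4 probe sets) was called lower in XY at E12.5 and higher over the day in XX. Dgat1 (1 of 2) was called lower over the day in both sexes, and Ncoa3 (1 of 2) in XY.

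Of the nuclear receptors for retinoic acid, Rara, Rarb, Rarg, Rxra, Rxrb and Rxrg, limma called 0 in any comparison at the brightest probe set, where an unadjusted p under 0.05 was found for Rxra between the sexes at E12.5 and over the day in XX and for Rarg over the day in XY. A dimmer probe set of Rxra, 1 of 3 in each comparison, was called lower in XY at E12.5 and higher at E12.5 than at E11.5 in XX. At its brightest probe set Rxra read 8.81, 8.84 and 7.62 in XY E12.5, and 9.16, 9.47 and 9.32 in XX E12.5, a difference of -0.89 (-1.51 to -0.27; adjusted p = 0.09). Ppard, a receptor gene whose protein can also bind retinoic acid, read 6.75, 6.76 and 7.01 in XY E12.5, and 7.80, 7.65 and 7.66 in XX E12.5. It was 1.82-fold lower in XY at E12.5 (adjusted p = 0.028) and rose 2.15-fold over the day in XX (adjusted p = 0.024), at 1 of 2 probe sets. The first call ended without any 1 of the 6 E12.5 arrays (adjusted p up to 0.094), and the second without XX pools 2 and 3 of either day (up to 0.087).

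Genes that retinoic acid is known to induce in other tissues numbered 17 measured of 20. At E12.5 Rec8, a meiotic cohesin gene, was 2.66-fold lower in XY (1.79 to 3.97; limma adjusted p = 0.0084), with 6.60, 6.23 and 6.96 in XY E12.5 and 7.85, 8.08 and 8.09 in XX E12.5. Its call held without any 1 of the 12 arrays. Stra8, the gene of meiotic entry, read 7.03, 7.55 and 6.76 in XY E12.5, 6.59, 6.82 and 6.86 in XX E12.5, 6.61 to 6.76 in XY E11.5 and 6.38 to 6.70 in XX E11.5, with no call. The 11 germ cell markers measured, Stra8 among them, averaged 5.88 to 6.39 in XY E12.5, 5.86 to 6.56 in XX E12.5, 5.61 to 5.91 in XY E11.5 and 5.42 to 6.15 in XX E11.5. Whether germ cells had a part in the Rec8 signal was not tested. Over the day in XY Nr2f2, an orphan nuclear receptor gene, fell 4.61-fold (2.56 to 8.29; adjusted p = 0.009; called at 2 of 6 probe sets) and Meis1, a homeobox gene, 2.09-fold (adjusted p = 0.013; 2 of 3), which ended without XY E12.5 pool 3 (adjusted p = 0.055). Nr2f2, which is also among the interstitial mesenchyme markers, fell 3.23-fold in XX (adjusted p = 0.045; 1 of 6), which ended without any 1 of 8 arrays (adjusted p up to 0.16). Nrip1, a corepressor gene that retinoic acid receptors recruit, fell 2.13-fold in XY (adjusted p = 0.025; 3 of 6), which ended without XY E11.5 pools 1 or 3 or XY E12.5 pools 2 or 3 (adjusted p up to 0.097). In XX its brightest probe set was not called over the day, but 1 of 6 probe sets was called lower. With its probe sets averaged, Nrip1 was called lower in XX at -1.32 (limma adjusted p = 0.0057).

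The genes whose values over the 12 arrays most resembled those of a called member were taken from 11646 named genes with a bright probe set. For Dhrs3 these were Timm8a1, an importer of mitochondrial proteins (Pearson r = 0.99), E330013P04Rik (0.99) and Lhx9, whose LIM homeodomain factor acts in the gonadal ridge (0.98). Lhx9 averaged 8.55 in XY E12.5, 12.68 in XX E12.5, 12.38 in XY E11.5 and 12.65 in XX E11.5. Like Dhrs3, it was low in 1 of the 4 groups, XY E12.5, a likeness that its choice by correlation brings with it. Lhx9 is also 1 of the 10 pregranulosa markers, all of which were called lower in XY at E12.5. For Cyp26b1 they were Nipal1, a magnesium transporter gene (0.98), Ptgr1, a prostaglandin reductase gene (0.96), and Srsf9, a splicing factor gene (0.96). Nipal1 averaged 11.72 in XY E12.5, 9.44 in XX E12.5, 12.06 in XY E11.5 and 11.15 in XX E11.5. For Aldh1a1 they were Nkd2, an inhibitor of WNT signalling (0.97), Vstm4 (0.97) and Trim32, a ubiquitin ligase gene (0.96). For the called Aldh1a3 probe set they were 1600012H06Rik (0.94), Tlr5 (0.94) and 4933435C09Rik (0.93). Such correlations describe 12 arrays in 4 groups, which share the sex and day contrasts, and carry no test.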

How the data were processed

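RNA of 12 pools of sorted cells was extracted with a PicoPure kit, then amplified and biotin-labelled over 2 rounds with a TargetAmp kit, per the labels' protocols. The authors deposited 1 value per probe set and array, taken here as log2: the largest, 14.45, allows a base of at most 2.15 for a 16-bit scanner. How probes were summarised and arrays normalized is not stated in the sources at hand, and there are no detection calls. Of 45037 probe sets, those blank on all arrays (798) or on some (1) were left out. Symbols came from the platform's probe table and were brought up to date by Entrez number with RefSeq's GRCm38.p6 gene table (34126 matched): 34328 tested probe sets had 1 symbol, 850 several and 9060 none.

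The 4 group means over all 12 arrays were fitted by limma 3.58.1 (lmFit, eBayes; R 4.3.3) with 8 residual degrees of freedom, and two-sided p-values were adjusted over all probe sets by Benjamini-Hochberg. A fold is the base 2 raised to a log2 difference, and intervals are at 95%. Genes outside the members were read at their brightest probe set. Where a list gene was called only at a dimmer probe set, that call is given too. Named were all member probe sets, list genes called in any comparison, Sox9, Nr5a1, Foxl2 and the 3 genes most correlated with each called member. Stra8, the receptor genes and the Y-linked probe sets were picked after their values were seen. Members and lists were chosen with earlier results of these data known. The code was tested on simulated data. The number of arrays, 3 per group, limits precision. Alternatives were a minimum brightness, quantile normalization, median centring, array weights, a mean-dependent variance prior, pool number as a block, fits to the compared arrays alone, 1 value per gene, and each array left out in turn.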

Additional observations from a re-analysis of the deposited data

Results flagged for a closer look

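Dhrs3 met a test of the difference between the sexes' changes: the difference of XY minus XX at E12.5 minus that at E11.5 was -2.26 on the log2 scale (limma, adjusted p = 0.004), and its 3 XY values at E12.5 all lay below its 3 XX values. For Foxl2 the same quantity was -2.71 (adjusted p = 0.0087).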

How the results depend on the processing

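The 3 calls of Dhrs3, that of Aldh1a1 and that of Cyp26b1 between the sexes at E12.5 held under every alternative that gave a value, 20 or 21 for each. Counts of called member probe sets moved as follows. Over the day in XY the count was 1 and became 2, through Aldh1a1, with the filter to brighter probe sets, quantile normalization, the prior following the mean, array weights, 1 probe set per gene (the brightest) and the average over each gene's probe sets. Over the day in XX it was 1 and became 0, through Cyp26b1, when the compared arrays were fitted alone (adjusted p = 0.087), where fewer arrays estimate the spread. Between the sexes at E12.5 it was 4 and became 3 when the compared arrays were fitted alone, through Aldh1a3 (1427395_a_at, adjusted p = 0.072), 3 with the filter to brighter probe sets and with either value per gene, where that probe set is not tested on its own, and 5 with array weights. Leaving out 1 array gave 0 to 1 at E11.5, 3 to 4 at E12.5, 0 to 1 over the day in XX, 1 to 2 over the day in XY and 1 to 1 for the change in the sex difference. With the pool number as a replicate block the counts were 0, 4, 1, 1 and 1 in that order. Same-numbered pools did not deviate together (correlations of -0.40 to 0.23 over 18 pairs, 4 above 0.1), so the numbers were not used as pairs, and whether they mark a shared day is not stated. The block ended no member's call, but ended those of Rdh11 between the sexes at E12.5 (adjusted p = 0.086) and over the day in XY (0.066) and of Nr2f2 over the day in XX (0.063). Rdh10 (1426968_a_at) was called between the sexes at E12.5 with array weights (adjusted p = 0.048). Nr2f2 was called lower in XY at E12.5 with brighter probe sets (adjusted p = 0.044), array weights (0.041) and compared arrays alone (0.039). It was also called there with the brightest probe set per gene (0.0497) and with probe sets averaged (0.032). Over the day in XY the Rdh11 value became 0.0232 when its probe sets, which differ, were averaged, and no other named called value changed sign. The fit to compared arrays alone was not run for the change in the sex difference, which needs all 4 groups. Over all probe sets, array weights gave 5794 calls between the sexes at E12.5 (against 3416) and 2405 over the day in XX (against 1378), and the compared arrays alone gave 624 over the day in XX and 12 between the sexes at E11.5 (against 30). Signal over background is unknown, since the table holds no detection calls, and limits what the dim probe sets of Aldh1a3, Cyp26a1, Crabp1 and Crabp2 can show.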
